A study of Homo sapiens with 20 samples.

Results

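The genes described here are 37 genes of the cellular response to low oxygen and of glycolysis, namely oxygen sensors, targets of the hypoxia-inducible factor (HIF), glucose transporters, glycolytic enzymes and their regulators. They were chosen by name, as every probe set whose platform annotation gives the gene's symbol, and not by their values, from a list drawn up when earlier results of these data were known. Of the 37 genes, 36 were measured among the 19775 genes with a named probe set, through 84 probe sets, 11 genes with 1 probe set each and 25 with up to 7. CA9 had no probe set that carries its symbol alone in that annotation and was not analysed here. All 36 passed the filter on low signal.

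RNA came from Caco-2, a human colon carcinoma line used as a model of the intestinal epithelium, after 5 days of differentiation on cell culture inserts. In the probiotic set of 14 arrays, 7 groups had 2 arrays each. One was kept in plain medium for 8 h. In 3 co-cultures the cells met live L. acidophilus NCFM, B. animalis ssp. lactis 420 (B. lactis 420 from here on) or L. salivarius Ls-33, 20 to 100 per Caco-2 cell, during the same 8 h. The last 3 groups had 24 h of cell-free supernatant from cultures of those strains, making up 10% of the medium. The other 6 arrays form the E. coli set: 3 of plain medium at 24 h and 3 of 24 h with a 5% supernatant of the enterohaemorrhagic strain E. coli O157:H7. The probiotic set was labelled from 5 µg of RNA and the E. coli set from 1 µg. Before use the probiotics grew without air in MRS and E. coli in LB, each broth holding 1% added glucose, and no group with uninoculated broth was analysed here. Cells with probiotic supernatant were cultured for 24 h whereas the medium of their own array set stood for 8 h, so supernatant and time cannot be told apart in that comparison. All groups are of 1 cell line, and nothing in the labels says that arrays of a group came from separate cultures, so p-values measure the spread between arrays, which may be technical.

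When oxygen is plentiful, prolyl hydroxylases such as EGLN1 and EGLN3 mark the alpha subunits of HIF for destruction through the VHL ubiquitin ligase. When oxygen is scarce, HIF1A protein accumulates, pairs with ARNT and raises genes for glucose uptake, glycolysis, angiogenesis, pH control and mitophagy, and EGLN3, NDRG1, CA12 and ANKRD37 are widely used as readouts of that program. HIF1A is controlled largely at the protein level, so its mRNA does not report HIF activity. The intestinal epithelium lies next to an almost oxygen-free lumen, and HIF targets are part of its normal expression program.

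HIF binds a short core motif, ACGTG or GCGTG. RefSeq promoters (build GRCh38.p14) were at hand for 32 of the 36 measured genes, and the 250 bases before each start were searched for these 2 motifs on both strands. At least 1 match was present in 28 of the 32 genes (87.5%), against 64.3% of the tested genes with a promoter and 47.4% of all genes with a promoter. A gene counted if any of its promoters held a match. Counted by promoter the gap was smaller, 67.3% against 54.5% for the tested genes and 43.2% for all genes. ACGTG was present in 62.5% of the genes against 28.6% of the tested genes, and GCGTG in 59.4% against 52.8%. The median GC content of the promoters was 68.6% against 64.4%, and its part in these shares was not tested. Among the genes whose values are given for every array, ANKRD37, GPI and ERO1A fell with every live strain. EGLN3, BHLHE40 and ERO1A differed among strains, and BNIP3, ANKRD37, GPI and EGLN3 fell with E. coli supernatant. The promoters of these 6 genes are shown because they bracket the patterns of the report. Each is written 5′ to 3′ on the strand of its gene and ends at the base before the start, with matches in capitals; a match on each strand is counted, so that CACGTG counts as 2.
ANKRD37, chr4:185396591-185396840, plus strand: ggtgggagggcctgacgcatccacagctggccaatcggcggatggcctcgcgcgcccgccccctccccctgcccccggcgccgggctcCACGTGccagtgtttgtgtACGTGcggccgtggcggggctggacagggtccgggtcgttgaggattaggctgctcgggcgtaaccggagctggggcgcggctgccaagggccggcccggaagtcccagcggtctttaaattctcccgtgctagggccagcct
GPI, chr19:34364742-34364991, plus strand: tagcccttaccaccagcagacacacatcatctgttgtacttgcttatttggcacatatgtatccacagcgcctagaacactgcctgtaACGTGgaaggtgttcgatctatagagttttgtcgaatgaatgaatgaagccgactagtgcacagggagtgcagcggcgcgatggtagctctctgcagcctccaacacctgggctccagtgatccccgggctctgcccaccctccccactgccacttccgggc
ERO1A, chr14:52695559-52695808, minus strand: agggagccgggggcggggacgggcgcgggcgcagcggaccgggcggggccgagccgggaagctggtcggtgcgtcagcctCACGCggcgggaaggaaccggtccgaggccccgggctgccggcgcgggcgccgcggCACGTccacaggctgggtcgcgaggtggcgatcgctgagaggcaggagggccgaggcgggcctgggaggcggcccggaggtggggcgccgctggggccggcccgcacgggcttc
BNIP3, chr10:131981924-131982173, minus strand: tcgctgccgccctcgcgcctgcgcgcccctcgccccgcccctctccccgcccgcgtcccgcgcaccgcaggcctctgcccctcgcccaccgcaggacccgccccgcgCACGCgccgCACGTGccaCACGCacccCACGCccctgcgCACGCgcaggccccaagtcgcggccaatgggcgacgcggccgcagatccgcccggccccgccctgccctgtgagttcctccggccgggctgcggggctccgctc
BHLHE40, chr3:4979187-4979436, plus strand: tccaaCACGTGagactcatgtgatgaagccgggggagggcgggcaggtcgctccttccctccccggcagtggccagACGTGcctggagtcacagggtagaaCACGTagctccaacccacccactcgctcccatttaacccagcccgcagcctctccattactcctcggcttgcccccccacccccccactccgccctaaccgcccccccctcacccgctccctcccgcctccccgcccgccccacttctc
EGLN3, chr14:33951075-33951324, minus strand: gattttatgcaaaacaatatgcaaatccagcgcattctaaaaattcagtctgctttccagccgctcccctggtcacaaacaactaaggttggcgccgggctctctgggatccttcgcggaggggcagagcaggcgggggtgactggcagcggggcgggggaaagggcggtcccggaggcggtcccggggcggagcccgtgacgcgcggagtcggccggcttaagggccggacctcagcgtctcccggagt

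In these windows ANKRD37 held 3 matches, GPI 1, ERO1A 2, BNIP3 6 and BHLHE40 4. EGLN3 had no match in its window, which says only that these letters are not in those 250 bases. The matches are a description of sequence and were not set against the expression values.

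Median log2 signal lay between 2.66 and 2.72 on the 20 arrays, and arrays of 1 group correlated at r = 0.994 to 0.997 over 13 pairs. Of 13 measured markers of enterocytes and of Caco-2 cells, all reached the floor of 2.76 on the log2 scale (the 40th percentile of all genes' means) and 8 were above the 90th percentile, while FABP2 and APOA1 stood close to the floor at 2.90 and 2.94. Of 12 measured markers of fibroblasts, leukocytes and endothelium, 6 reached the floor, among them LUM at 11.4, COL1A1 at 11.1 and PECAM1 at 8.72, and PTPRC, CD3E, VWF, CDH5 and DCN lay under it. The mean over these 12 markers was 4.85 to 4.94 in 8 h medium, 4.71 to 4.82 in the co-cultures, 4.88 to 4.97 in the probiotic supernatants, 4.82 to 4.93 in 24 h medium and 4.55 in E. coli supernatant. The 3′ minus 5′ difference of the actin control probe sets, which rises as RNA is shortened, was 0.80 to 0.88 in 8 h medium, 1.08 to 1.54 in the co-cultures, 1.02 to 1.11 in the probiotic supernatants, 1.90 to 2.17 in 24 h medium and 2.12 to 2.22 in E. coli supernatant. Both measures therefore moved with the groups, and their part in the results below was not tested. In such bulk samples fewer cells of a type and less RNA per cell cannot be told apart.

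The first comparison asked what live bacteria did to this program in 8 h, against medium of the same time and array set. Most of the genes were lower with each strain: glycolytic enzymes from GPI to LDHA, the collagen prolyl hydroxylase P4HA1, the stress-response gene NDRG1 and the oxygen sensor EGLN1 fell, while HIF1A and DDIT4, an inhibitor of mTORC1 signalling, rose. With NCFM 24 of the 36 genes were called lower and 3 higher (limma, Benjamini-Hochberg adjusted p under 0.05), where 18.4% and 16.8% of the 11865 genes tested were called. With B. lactis 420 the counts were 25 lower and 3 higher, against 16.9% and 18.3% of all genes. With Ls-33 they were 23 lower and 5 higher, against 19.3% and 19.4%. The median log2 change of the 36 genes was -0.34, -0.37 and -0.24 for the strains in this order, where the median over all genes tested was -0.0060, 0.0087 and -0.0079. The 3 comparisons share both medium arrays, and 18 genes were called lower in all 3. The share of all genes lower in all 3 was not counted here, and can be at most the 16.9% of B. lactis 420.

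**Figure D1:**
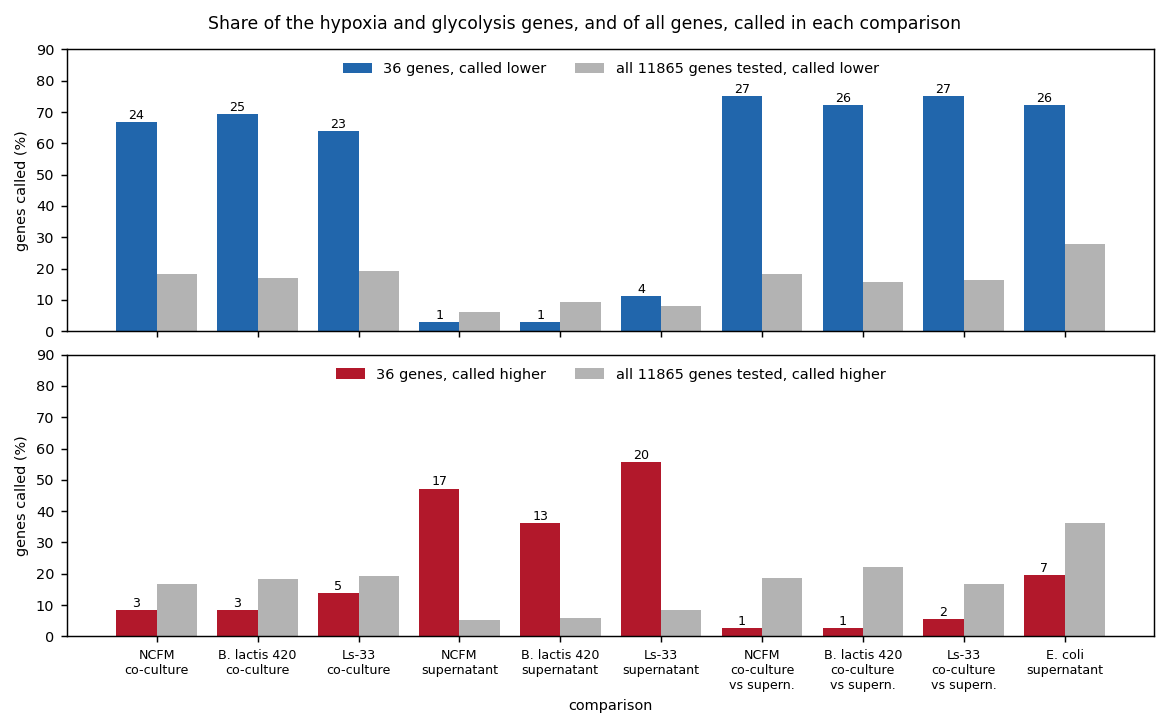
Share of the 36 genes (coloured bars, number of genes above each) and of all 11865 genes tested (grey bars) called lower (upper panel) or higher (lower panel) at an adjusted p under 0.05; the vertical axis is percent of genes and starts at 0. In the 3 co-cultures 24, 25 and 23 of 36 genes were lower, and in the 3 probiotic supernatants 17, 13 and 20 were higher.

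**Figure D2:**
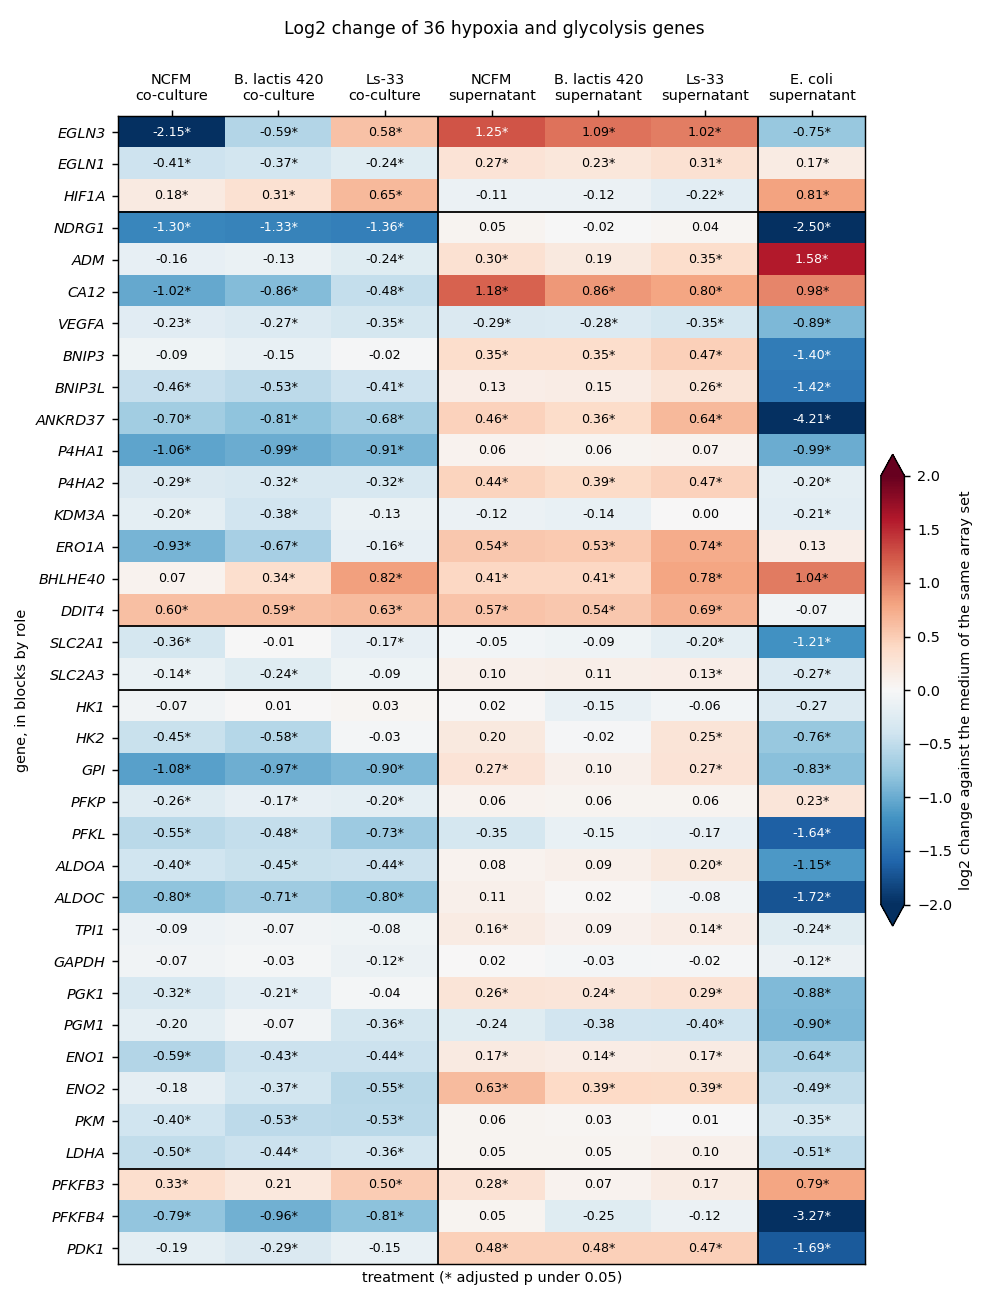
Log2 change of each gene (rows, in blocks for oxygen sensors and HIF1A, other hypoxia targets, glucose transporters, glycolytic enzymes and regulators) against the medium of its own array set (columns), with blue for lower, red for higher, colours saturating at 2 and an asterisk for an adjusted p under 0.05. The 3 co-culture columns are mostly blue, the 3 probiotic supernatant columns mostly pale or red, and the E. coli column holds the deepest blue, ANKRD37 at -4.21.

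NDRG1, a growth and differentiation gene induced by hypoxia, was the gene called in all 3 co-cultures with a mean change of at least 1 on the log2 scale. Its log2 signal was 11.56 and 11.59 on the 8 h medium arrays, 10.26 and 10.30 with NCFM, 10.27 and 10.21 with B. lactis 420 and 10.21 and 10.21 with Ls-33. All 6 arrays with live bacteria were lower than both medium arrays by more than 1 log2 unit. The change was -1.30 (SE 0.058, adjusted p = 2.2e-12) with NCFM, -1.33 (SE 0.058, adjusted p = 1.3e-12) with B. lactis 420 and -1.36 (SE 0.058, adjusted p = 5.4e-13) with Ls-33, which is 2.46-fold, 2.52-fold and 2.58-fold lower. With the supernatants it read 11.61 and 11.64, 11.66 and 11.46 and 11.60 and 11.63, about the level of medium, and none of those changes was called (adjusted p = 0.64, 0.89 and 0.69).

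Among the 13 measured targets outside glycolysis, 9 were lower with each strain. P4HA1, a subunit of the enzyme that hydroxylates proline in collagen, changed by -1.06, -0.99 and -0.91 (adjusted p = 4.3e-13, 1.1e-12 and 2.2e-12). BNIP3L, a mitophagy receptor, changed by -0.46, -0.53 and -0.41, whereas its relative BNIP3 was not called with any strain (-0.09, -0.15 and -0.02). A further probe set of BNIP3 was called lower with NCFM at -0.79. VEGFA, the angiogenic growth factor, fell by 0.23, 0.27 and 0.35 on the log2 scale. The fall of P4HA2 (-0.29, -0.32 and -0.32) rests on 1 probe set, since 2 other probe sets of that gene read -0.026 and 0.26 with NCFM and were not called. DDIT4 rose by 0.60, 0.59 and 0.63, against the direction of most of the list.

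The 15 genes grouped here as glycolytic enzymes include the phosphoglucomutase PGM1. Of these 15, 10, 11 and 11 were lower with the strains in the same order, and the others were not called. GPI, which turns glucose 6-phosphate into fructose 6-phosphate, read 11.09 and 11.15 in 8 h medium, 10.13 and 9.96 with NCFM, 10.22 and 10.08 with B. lactis 420 and 10.20 and 10.23 with Ls-33. All co-culture arrays of GPI were below both medium arrays, and the changes were -1.08 (SE 0.0613, adjusted p = 7.0e-11), -0.97 (SE 0.0613, adjusted p = 2.9e-10) and -0.90 (SE 0.0613, adjusted p = 6.5e-10). ALDOA, the main muscle-type aldolase, read 13.17 and 13.26 in medium against 12.86 and 12.77, 12.80 and 12.73 and 12.74 and 12.81 with the strains in the same order, all 6 below medium. All 3 probe sets of ALDOA may cross-hybridise, as may the 3 of GAPDH. ALDOC changed by -0.80, -0.71 and -0.80, PFKL, a phosphofructokinase, by -0.55, -0.48 and -0.73, and LDHA, which makes lactate from pyruvate, by -0.50, -0.44 and -0.36. HK1 and TPI1 were not called with any strain. The enzymes that fell with at least 1 strain thus reach from the hexokinase HK2, lower with NCFM and B. lactis 420, to LDHA. TPI1 is a gap between them, and GAPDH was called with Ls-33 alone. Where called, the changes lay between -1.08 (GPI with NCFM) and -0.12 (GAPDH with Ls-33).

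The glucose transporters moved less: SLC2A1 (GLUT1) changed by -0.36 with NCFM and -0.17 with Ls-33 and was not called with B. lactis 420 (-0.01). SLC2A3 (GLUT3) was lower with NCFM and B. lactis 420 (-0.14 and -0.24) and not called with Ls-33 (-0.09). The regulators parted. PFKFB4, a bifunctional enzyme that sets the level of fructose 2,6-bisphosphate, fell with all 3 strains (-0.79, -0.96 and -0.81), while its relative PFKFB3 rose with NCFM and Ls-33 (0.33 and 0.50) and read 0.21 with B. lactis 420 (adjusted p = 0.081). PDK1, the kinase that shuts pyruvate out of the citric acid cycle, was called lower with B. lactis 420 alone (-0.29), and its probe sets disagreed. A second one fell by 1.60, 1.02 and 1.02 on the log2 scale with NCFM, B. lactis 420 and Ls-33. The third rose by 0.76, 1.24 and 0.90 in the same order. The mean signal of the third was low, 2.73, against 4.18 for the second and 8.86 for the probe set used.

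**Figure D3:**
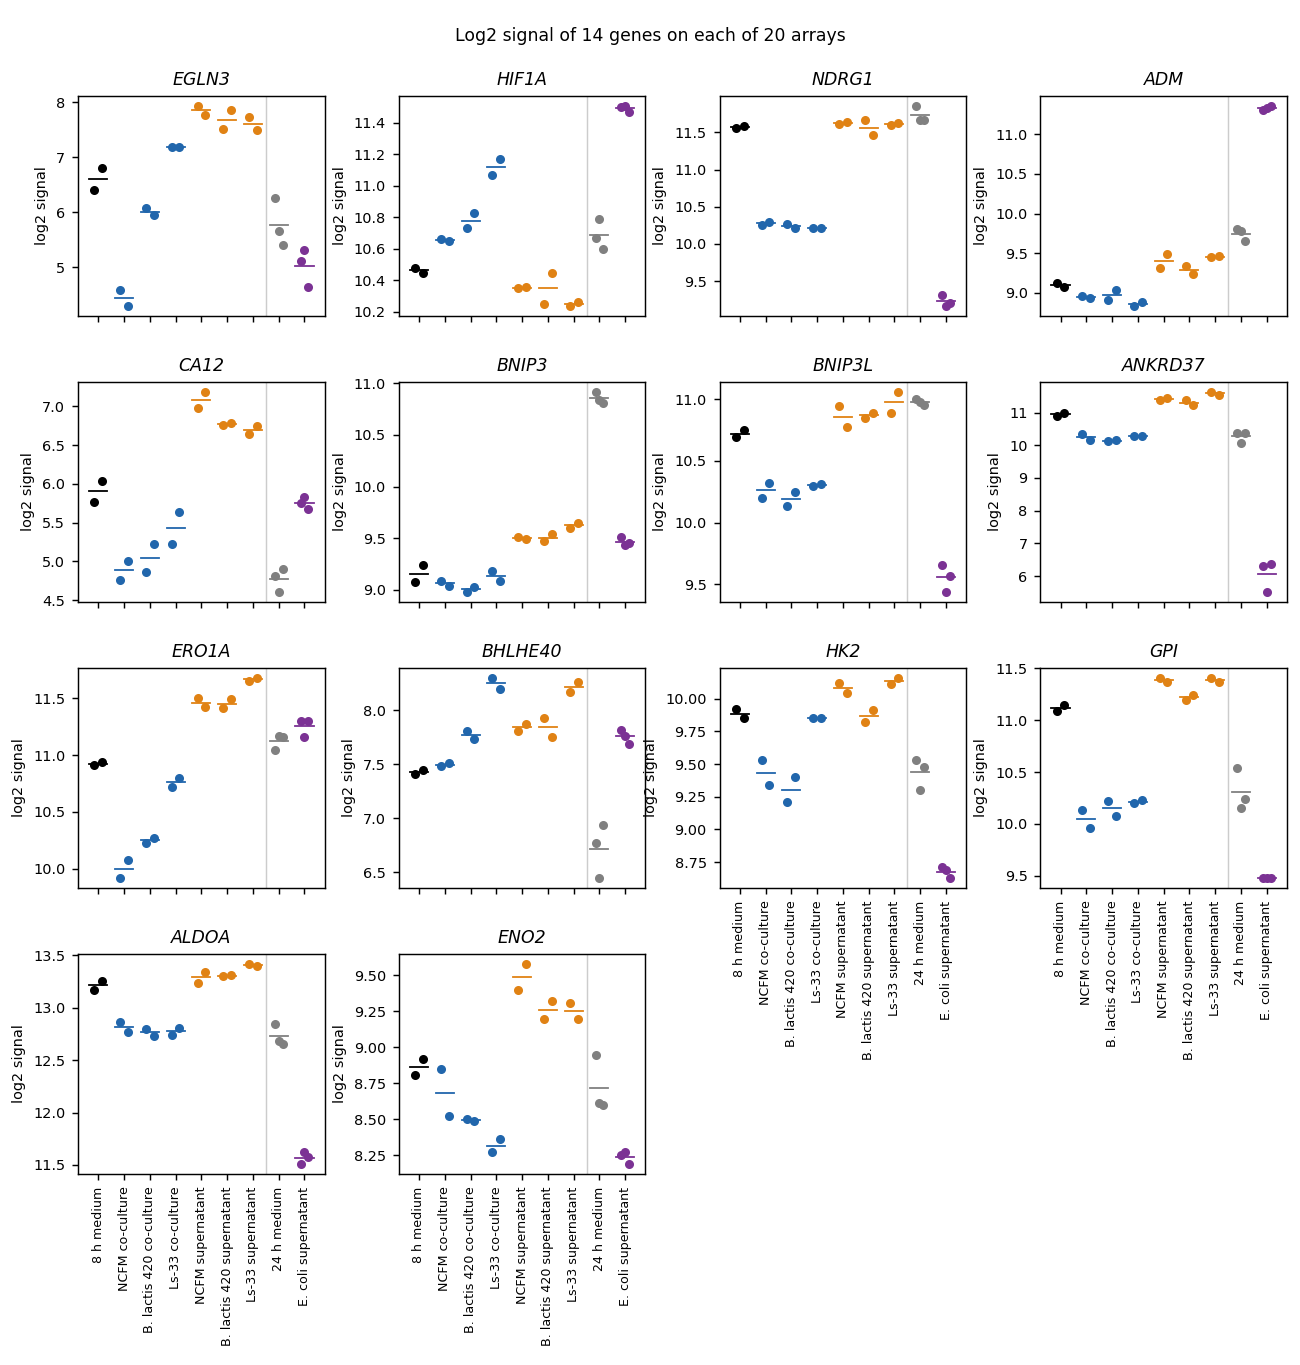
Log2 signal (vertical axis, a separate scale for each gene) of the 14 genes named by rule on each of the 20 arrays (points), with the group mean as a line; black is 8 h medium, blue the co-cultures, orange the probiotic supernatants, grey 24 h medium and purple E. coli supernatant, and the vertical line parts the array sets. NDRG1 and GPI show the co-cultures together below medium, and EGLN3, ERO1A, HIF1A and BHLHE40 show them spread by strain.

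Differences among the 3 live strains were examined with limma's moderated F-test, which called 11 of the 36 genes, against 13.7% of all genes tested. Without the first array of the Ls-33 co-culture the count was 7. The genes with the widest spread were the oxygen sensor EGLN3, the endoplasmic oxidase ERO1A, the transcriptional repressor BHLHE40, the hexokinase HK2, HIF1A and the enolase ENO2. For most of them the NCFM and Ls-33 means stood at opposite ends.

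EGLN3 read 6.40 and 6.80 in 8 h medium, 4.58 and 4.30 with NCFM, 6.07 and 5.94 with B. lactis 420 and 7.18 and 7.18 with Ls-33. Both NCFM arrays were far below medium, both B. lactis 420 arrays were slightly below it and both Ls-33 arrays were above it, with no overlap between any of these groups. The change was -2.15 (SE 0.16, adjusted p = 3.6e-09) with NCFM, -0.59 (SE 0.16, adjusted p = 0.0071) with B. lactis 420 and 0.58 (SE 0.16, adjusted p = 0.0068) with Ls-33, and the range of the 3 co-culture means was 2.74 (F-test adjusted p = 1.5e-09). EGLN3 was the one gene of the 36 called in opposite directions among the co-cultures. Its other probe set gave -0.83, 0.027 and 1.10 in the same order of strains, so the order was the same, but the value for B. lactis 420 was not called. B. lactis 420 was also no longer called without the second array of 8 h medium (-0.39) or without the second B. lactis 420 array (-0.53), and that with Ls-33 without the first array of 8 h medium (0.38).

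ERO1A, which forms disulphide bonds in secreted proteins, read 10.91 and 10.94 in medium, 9.92 and 10.08 with NCFM, 10.23 and 10.27 with B. lactis 420 and 10.72 and 10.80 with Ls-33. The groups did not overlap, and the changes of -0.93, -0.67 and -0.16 differed among strains (range 0.77, F-test adjusted p = 5.6e-08). The fall with Ls-33 was lost without either array of 8 h medium or without the first Ls-33 array (-0.17, -0.15 and -0.12), and also with no filter, with no trend in the fit or after joint quantile normalization. HIF1A read 10.48 and 10.45 in medium, 10.66 and 10.65 with NCFM, 10.73 and 10.83 with B. lactis 420 and 11.07 and 11.17 with Ls-33. All 6 co-culture arrays were above medium, Ls-33 highest, with changes of 0.18, 0.31 and 0.65 (range 0.47, F-test adjusted p = 1.1e-04). The smallest, with NCFM, was no longer called when any 1 of the 4 arrays behind it was left out (0.17 to 0.20), with no trend in the fit or with only the groups compared in it.

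BHLHE40 read 7.41 and 7.45 in medium, 7.48 and 7.51 with NCFM, 7.81 and 7.73 with B. lactis 420 and 8.30 and 8.20 with Ls-33, so the Ls-33 arrays were the highest and the NCFM arrays nearly at medium. The changes were 0.07 (adjusted p = 0.65), 0.34 and 0.82, and the range was 0.76 (F-test adjusted p = 1.1e-04). A second probe set of BHLHE40 gave -0.53 with NCFM and 0.59 with Ls-33, both called. With B. lactis 420 the rise was no longer called without the first array of 8 h medium (0.32) or the first B. lactis 420 array (0.30). HK2, the inducible hexokinase, read 9.92 and 9.85 in medium, 9.53 and 9.34 with NCFM, 9.21 and 9.40 with B. lactis 420 and 9.85 and 9.85 with Ls-33. It was below medium with NCFM and B. lactis 420 (-0.45 and -0.58) and overlapped it with Ls-33 (-0.03), with a range of 0.54 (F-test adjusted p = 1.7e-04). Another 2 probe sets of HK2 were not called with any strain, but their mean signals were low, 3.53 and 3.03 against 9.57 for the probe set used.

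ENO2, the neuronal-type enolase, was arranged the other way, with 8.81 and 8.92 in medium, 8.85 and 8.52 with NCFM, 8.50 and 8.49 with B. lactis 420 and 8.27 and 8.36 with Ls-33. The Ls-33 arrays were the lowest and 1 NCFM array lay among the medium arrays, with changes of -0.18 (adjusted p = 0.18), -0.37 and -0.55 and a range of 0.37 (F-test adjusted p = 0.042). The fall with B. lactis 420 was not called without the second array of 8 h medium (-0.32), and that with NCFM was called without the first NCFM array (-0.34). SLC2A1, PGK1, ENO1, SLC2A3 and LDHA were the other 5 genes of the F-test, with ranges from 0.14 to 0.35. NDRG1, ANKRD37, GPI and P4HA1 were not called in it. For NDRG1 the range of the 3 means was 0.07.

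The next comparison was of 24 h of probiotic supernatant against the 8 h medium of the same set, and its direction was mostly the opposite. EGLN3, EGLN1, CA12, ANKRD37, ERO1A, BNIP3, PDK1 and the enzymes PGK1, ENO1 and ENO2 rose with all 3 supernatants, and VEGFA fell. With NCFM supernatant 17 of 36 genes were called higher and 1 lower, against 5.28% and 5.98% of all genes. With B. lactis 420 supernatant the counts were 13 and 1, against 5.98% and 9.20%, and with Ls-33 supernatant 20 and 4, against 8.48% and 8.14%. The counts of higher genes leaned on the first array of 8 h medium, without which they were 9, 8 and 11, and the NCFM count was also 9 without the first NCFM supernatant array. The median log2 change of the 36 genes was 0.15, 0.093 and 0.17, beside -0.018, -0.042 and -0.010 over all genes. The 3 comparisons share the medium arrays with each other and with the co-cultures.

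EGLN3 read 7.94 and 7.76 with NCFM supernatant, 7.52 and 7.85 with B. lactis 420 and 7.73 and 7.49 with Ls-33, each array above both medium arrays, and rose by 1.25, 1.09 and 1.02 (adjusted p = 4.4e-05, 1.7e-04 and 2.4e-04). CA12, a membrane carbonic anhydrase that regulates pH, read 5.77 and 6.04 in medium and 6.98 and 7.19, 6.76 and 6.78 and 6.65 and 6.75 with the supernatants, again all above. It rose by 1.18 (SE 0.178, adjusted p = 2.6e-04), 0.86 (SE 0.178, adjusted p = 0.0031) and 0.80 (SE 0.178, adjusted p = 0.0043), and the call with Ls-33 was lost without the first array of 8 h medium (0.66) or the second Ls-33 supernatant array (0.75). ANKRD37, an ankyrin-repeat protein known as a HIF target, read 10.91 and 10.98 in medium and 11.38 and 11.44, 11.39 and 11.22 and 11.64 and 11.53 with the supernatants. The rise was 0.46, 0.36 and 0.64, with every supernatant array above medium. ERO1A read 11.50 and 11.42, 11.41 and 11.49 and 11.65 and 11.68, all above medium, and rose by 0.54, 0.53 and 0.74.

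By role, EGLN1 and EGLN3 rose with each supernatant, and 8, 7 and 9 of the 13 targets outside glycolysis were higher. Of the 15 enzymes 5, 3 and 7 were higher, with changes from 0.14 to 0.63 where called. LDHA, PKM, ALDOC and PFKL, which fell with the live strains, were not called with any supernatant, nor was PFKFB4. DDIT4 rose about as much with supernatant (0.57, 0.54 and 0.69) as with live bacteria, and VEGFA fell with both. HIF1A was lower with Ls-33 supernatant (-0.22), and -0.11 and -0.12 with the other two were not called. The F-test among the 3 supernatants called 0 of the 36 genes (limma, lowest adjusted p = 0.34, 8 genes at an unadjusted p under 0.05), where 0.0337% of all genes were called. The ranges of the 3 supernatant means lay between 0.0030 and 0.38.

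The 24 h medium of the E. coli set matches the supernatants in time but not in array set or RNA input. Against it 21, 20 and 21 genes were higher and 6, 8 and 6 lower with NCFM, B. lactis 420 and Ls-33 supernatant, where 27.7%, 26.0% and 28.2% of all genes were higher and 28.2%, 29.3% and 27.3% lower. Of these, 11, 9 and 13 genes were called higher against both media, beside 3.04%, 3.09% and 4.68% of all genes. EGLN3, EGLN1, CA12, PGK1, ENO1, ENO2, ANKRD37, ERO1A and BHLHE40 were the 9 genes higher against both media with all 3 supernatants. Over all genes that share was not counted here, and can be at most the 3.04% of NCFM. CA12 rose by 2.31, 1.99 and 1.93 against 24 h medium, and EGLN3 by 2.08, 1.92 and 1.84. VEGFA was lower against both media with all 3 strains, alone with NCFM and B. lactis 420 and beside PGM1 and HIF1A with Ls-33, so that 1, 1 and 3 genes were lower, against 3.06%, 4.53% and 4.04% of all genes. For some genes the direction turned on the medium. BNIP3 rose by 0.35, 0.35 and 0.47 against 8 h medium and fell by 1.36, 1.35 and 1.23 against 24 h medium. DDIT4, ADM and P4HA2 also changed sign, but not all of these values were called. Against 24 h medium P4HA2 was not called with any strain (-0.07, -0.12 and -0.04), nor DDIT4 with Ls-33 (-0.08). ADM with B. lactis 420 was not called against 8 h medium (0.19).

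The media themselves differed in these genes. BNIP3 read 9.07 and 9.24 in 8 h medium and 10.92, 10.84 and 10.81 in 24 h medium, and CA12 5.77 and 6.04 and 4.81, 4.61 and 4.90. All 24 h arrays were above both 8 h arrays in 11 of the 36 genes and below them in 19 (30.6% and 52.8%), where 30.9% and 35.2% of all genes were so placed. Time, array set and RNA input cannot be told apart here, and no test was made.

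Live bacteria and supernatant of a strain were set against each other directly, 8 h against 24 h, so format and time cannot be told apart. For NCFM, B. lactis 420 and Ls-33, live bacteria gave lower values of 27, 26 and 27 of the 36 genes and higher values of 1, 1 and 2. Of all genes 18.3%, 15.7% and 16.3% were lower and 18.6%, 22.2% and 16.6% higher. The median difference of the 36 genes was -0.51, -0.52 and -0.52. There were 25 genes lower in all 3 strains, and HIF1A was higher in all 3. The share of all genes lower in all 3 strains was not counted here, and can be at most the 15.7% of B. lactis 420. PDK1 is 1 of the 25, at -0.67, -0.77 and -0.62, but a further probe set of that gene was called higher in all 3 strains (0.98, 1.69 and 0.94). The mean signal of that further probe set was low, 2.73 against 8.86 for the probe set used. The counts of lower genes stayed between 24 and 28 when any 1 array was left out. EGLN1, CA12, ENO1, ANKRD37, P4HA2 and ERO1A were called on both sides of medium, lower with all 3 live strains and higher with all 3 supernatants. The share of all genes so placed was not counted here, and can be at most the 5.28% higher with NCFM supernatant. The fall of P4HA2 rests on 1 probe set, and its supernatant rise was not called against 24 h medium (-0.07, -0.12 and -0.04). The fall of ERO1A with Ls-33 was small (-0.16) and was not called with no trend in the fit.

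**Figure D4:**
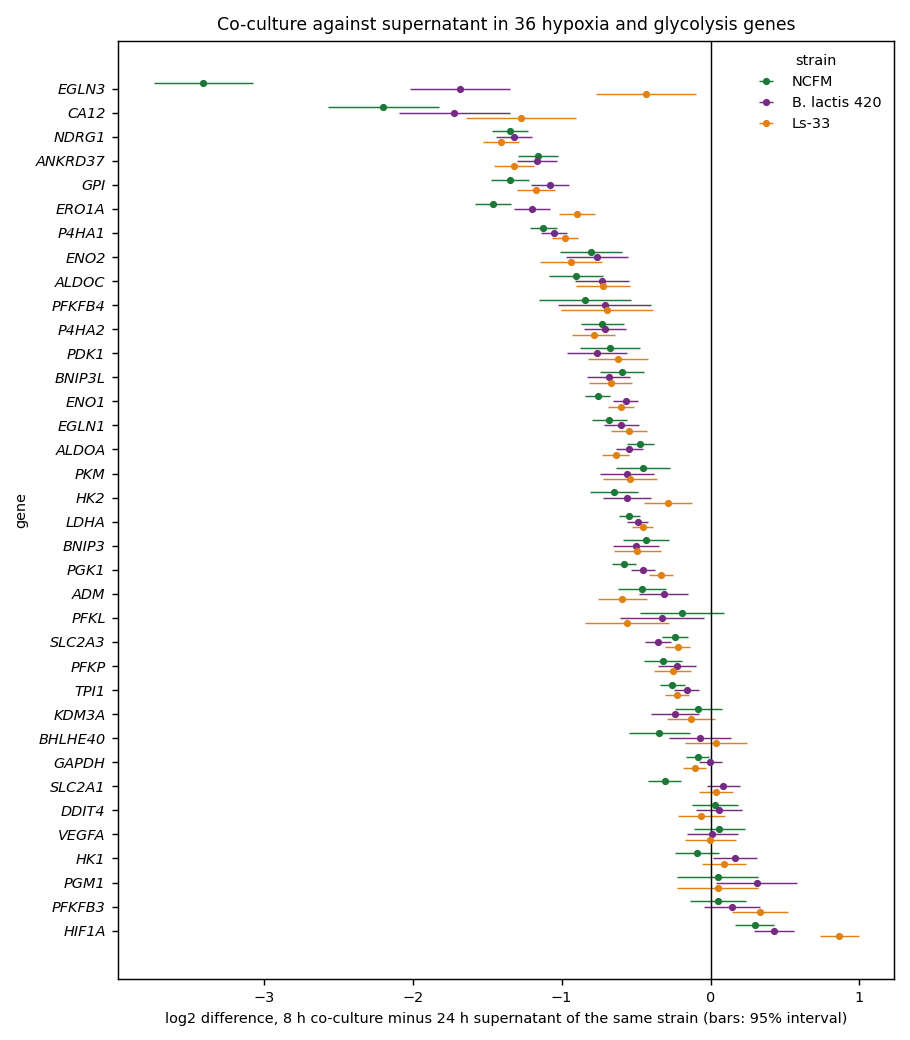
Log2 difference between the 8 h co-culture and the 24 h supernatant of the same strain (horizontal axis) for each of the 36 genes (rows, ordered by the mean of the 3 strains), with 95% intervals of the fit as bars and a colour for each strain. EGLN3 lies farthest to the left with NCFM at -3.41, 25 genes are called lower with all 3 strains, and HIF1A is the rightmost.

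The 6 genes with the largest mean difference were EGLN3, CA12, NDRG1, ANKRD37, GPI and ERO1A. EGLN3 differed by -3.41 (SE 0.16, adjusted p = 2.7e-12) with NCFM, -1.68 (SE 0.16, adjusted p = 9.8e-08) with B. lactis 420 and -0.43 (SE 0.16, adjusted p = 0.043) with Ls-33. The 95% intervals were -3.74 to -3.07, -2.02 to -1.35 and -0.77 to -0.10, which do not overlap. The call with Ls-33 was lost when any 1 of the 4 arrays behind it was left out (-0.55 to -0.31), and also with no filter, no trend or the replicate block. CA12 read 4.76 and 5.01, 4.86 and 5.23 and 5.22 and 5.64 in the co-cultures, below every supernatant array, and differed by -2.20, -1.72 and -1.27. ANKRD37 read 10.33 and 10.17, 10.13 and 10.15 and 10.27 and 10.27 in the co-cultures, and differed by -1.16, -1.17 and -1.32. In both genes the co-culture arrays were also below 8 h medium, and for CA12 with Ls-33 that call (log2 change -0.48) was lost without the second array of 8 h medium (-0.34) or the first Ls-33 co-culture array (-0.27). GPI read 11.41 and 11.37, 11.20 and 11.24 and 11.41 and 11.37 with the supernatants and differed by -1.35, -1.08 and -1.17. ERO1A differed by -1.46, -1.20 and -0.90. VEGFA and DDIT4 did not differ by the test between live bacteria and supernatant in any strain on the probe set used, with 95% intervals for NCFM of -0.11 to 0.23 and -0.13 to 0.19, but the mean of all VEGFA probe sets was lower with live NCFM and B. lactis 420 (-0.49 and -0.26).

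The last comparison was of E. coli O157:H7 supernatant with its own 24 h medium. It held the largest single change of the 36 genes, that of ANKRD37. ANKRD37, PFKFB4 and NDRG1 fell by more than 2 log2 units, 13 of 15 glycolytic enzymes fell, and ADM, CA12, BHLHE40, HIF1A and PFKFB3 rose. Of the 36 genes, 26 were called lower and 7 higher, against 27.8% and 36.3% of the genes tested, so that the share of higher genes was below that of all genes and the share of lower genes above it. The median log2 change was -0.57 against 0.048 over all genes. HK1, ERO1A and DDIT4 were the 3 genes not called.

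ANKRD37 read 10.37, 10.08 and 10.38 in 24 h medium and 6.31, 5.52 and 6.37 with E. coli supernatant, a change of -4.21 (SE 0.189, adjusted p = 4.7e-09), or 18.5-fold lower. NDRG1 read 11.86, 11.67 and 11.66 against 9.31, 9.17 and 9.21 and changed by -2.50 (SE 0.0697, adjusted p = 2.2e-10). In both genes the E. coli arrays lay at least 2 units below all medium arrays. BNIP3 read 10.92, 10.84 and 10.81 against 9.51, 9.43 and 9.45, and BNIP3L 11.00, 10.98 and 10.95 against 9.66, 9.44 and 9.57, so the mitophagy receptors fell together, by 1.40 and 1.42 on the log2 scale (adjusted p = 4.5e-09 and 8.4e-09). ALDOA read 12.85, 12.68 and 12.65 against 11.51, 11.62 and 11.58, a change of -1.15 (SE 0.0562, adjusted p = 8.9e-09). ADM, the vasodilator peptide adrenomedullin, was opposed to these, with 9.80, 9.78 and 9.65 in medium and 11.30, 11.33 and 11.36 with supernatant. All E. coli arrays were above medium, and ADM changed by 1.58 (SE 0.0609, adjusted p = 1.4e-09).

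Of the 15 enzymes 13 were lower and PFKP was higher (0.23). ALDOC changed by -1.72, PFKL by -1.64, PGM1 by -0.90, PGK1 by -0.88, HK2 by -0.76 and GPI by -0.83, whereas GAPDH changed by -0.12. GPI read 10.54, 10.15 and 10.24 in medium against 9.48, 9.48 and 9.48 with supernatant and HK2 9.53, 9.30 and 9.48 against 8.71, 8.69 and 8.63, without overlap. The transporter SLC2A1 changed by -1.21 and SLC2A3 by -0.27. The regulators parted: PFKFB4 changed by -3.27 and PDK1 by -1.69, while PFKFB3 rose by 0.79. PFKFB4 read 8.07, 6.81 and 6.86 in medium against 3.80, 3.87 and 4.29 with supernatant. The first medium array stood well above the others, so the size of that fall leans on it.

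The oxygen sensors and HIF1A did not move as one. HIF1A read 10.67, 10.79 and 10.60 in medium and 11.50, 11.51 and 11.47 with E. coli supernatant, a rise of 0.81 (SE 0.0585, adjusted p = 2.2e-07). EGLN3 read 6.26, 5.66 and 5.40 against 5.11, 5.31 and 4.64 and changed by -0.75 (SE 0.229, adjusted p = 0.012), a call that was lost without the third E. coli array (-0.56). EGLN1 rose by 0.17. CA12 read 5.76, 5.83 and 5.68 against the medium values above and rose by 0.98, BHLHE40 read 6.77, 6.45 and 6.94 against 7.82, 7.76 and 7.69 and rose by 1.04, and ENO2 read 8.95, 8.61 and 8.60 against 8.25, 8.27 and 8.19 and changed by -0.49. ERO1A read 11.04, 11.17 and 11.16 against 11.30, 11.16 and 11.30 (change 0.13, adjusted p = 0.076), while 2 other probe sets of that gene were called lower at -0.43 and -0.91.

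Side by side, each against its own medium, NDRG1 fell by 2.50 on the log2 scale with E. coli supernatant and by 1.30 to 1.36 with the live probiotics, P4HA1 fell by 0.99 and by 0.91 to 1.06, and LDHA fell by 0.51 and by 0.36 to 0.50. Other genes were on opposite sides: CA12 rose by 0.98 with E. coli supernatant and changed by -1.02, -0.86 and -0.48 with the live strains, and EGLN1 rose by 0.17 and changed by -0.41, -0.37 and -0.24. The E. coli supernatant was used at 5% and the probiotic supernatants at 10%, from different broths, and no test compares them directly.

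Other genes of the same pathways were followed through lists that do not overlap with the 36 genes. The shares of all genes to set beside their counts were those above, 16.9% to 19.3% lower and 16.8% to 19.4% higher with the live strains, 5.98% to 9.20% lower and 5.28% to 8.48% higher with the probiotic supernatants, and 27.8% lower and 36.3% higher with E. coli supernatant. Of 26 tested further hypoxia targets (27 with E. coli), 14, 13 and 13 were lower and 4, 3 and 3 higher with live NCFM, B. lactis 420 and Ls-33. The collagen cross-linking enzyme LOX changed by -2.66, -2.94 and -2.77, and the adenylate kinase AK4 by -1.11, -0.97 and -1.0. Of the higher genes, CXCR4 rose with each strain (0.90, 1.05 and 0.95) from a low signal of 3.33 in 8 h medium. MAFF rose with live B. lactis 420 and Ls-33 (0.63 and 0.66) and was lower with live NCFM (-0.23). With the supernatants 7, 6 and 9 were higher and 0, 2 and 3 lower, and the lipid-droplet protein PLIN2 rose (0.48, 0.43 and 0.45). AK4 was lower with B. lactis 420 and Ls-33 supernatant (-0.30 and -0.33). With E. coli supernatant 14 were lower and 8 higher, where AK4 changed by -1.84, the collagen hydroxylase PLOD2 by -1.91, the transcription factor MAFF by 3.37 and the haem oxygenase HMOX1 by 2.79.

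Of 12 tested regulators of HIF, 1, 4 and 2 were lower and 2, 3 and 2 higher with the live strains, with ELOC, a subunit of the VHL ligase, at 0.26, 0.24 and 0.26. Gluconeogenic PCK1 was lower with each live strain, by more than 2 log2 units (-2.07, -2.72 and -2.57), and with E. coli supernatant (-4.10), where the coactivator PPARGC1A rose (4.57). Of 9 tested genes of gluconeogenesis and glycogen (10 with E. coli), 3, 3 and 4 were lower and 1, 1 and 0 higher with the live strains, and 4 lower and 3 higher with E. coli supernatant. Of 10 tested further glycolytic enzymes and lactate carriers, 2, 2 and 4 were lower and 2, 3 and 4 higher with the live strains. With the probiotic supernatants 3, 2 and 3 were higher and 0, 1 and 1 lower, and with E. coli supernatant 3 higher and 1 lower. Among them LDHB was higher with each live strain (0.10, 0.12 and 0.13). TIGAR, which lowers fructose 2,6-bisphosphate, rose with the live strains (0.64, 0.86 and 1.11), with the probiotic supernatants (0.34, 0.26 and 0.29) and with E. coli supernatant (1.17). Of 24 tested genes (25 with E. coli) of pyruvate dehydrogenase and the citric acid cycle, 4, 3 and 5 were lower and 3, 2 and 3 higher with the live strains, near or below the share of all genes. With E. coli supernatant 12 were lower and 6 higher, and the pyruvate dehydrogenase kinases PDK3 and PDK4 changed by -2.0 and 1.71. Of 6 tested genes of the pentose phosphate pathway, the transketolase TKT was lower with all 3 live strains (-0.68, -0.56 and -0.54) and the isomerase RPIA higher (0.47, 0.71 and 0.56).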

How the data were processed

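Gene expression in Caco-2 cells was measured on 20 Affymetrix whole-genome arrays. The authors deposited 1 log2 value per probe set and array, made with RMA, per the submitters' processing notes. No RMA version is given in the sources used here, nor whether the array sets were normalized jointly. Each of 19775 genes was represented by its probe set with the highest mean, avoiding cross-hybridising (_x_at) probe sets where possible, and symbols were updated through Entrez identifiers to RefSeq (GRCh38.p14). The 11865 genes at or above the 40th percentile of the arrays of a fit were tested with limma 3.58.1 in R 4.3.3 (lmFit, eBayes with a trend), with Benjamini-Hochberg adjustment over all of them and calls at an adjusted p under 0.05. One fit held the 14 probiotic arrays and another the 6 E. coli arrays. Each of these fits was first tried on simulated data, for NCFM co-culture and for E. coli supernatant against medium. The other comparisons and the F-tests were not simulated. The genes and lists were chosen with earlier results of these data known. Values on every array are given for genes called in all 3 co-cultures at a mean change of 1 or more, the 6 largest differences between live bacteria and supernatant, the 6 lowest adjusted p with E. coli and the 6 widest ranges in the F-test; from each further list at most 4 genes per comparison were named. Alternatives were other filters, no trend, joint quantile normalization, other probe sets, fits of fewer or more groups, 24 h medium as control, the replicate block and leaving out each array. The number of arrays limits precision.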

Additional observations from a re-analysis of the deposited data

Results flagged for a closer look

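The effect of live bacteria differed among the 3 strains for 11 of the 36 genes, by the moderated F-test over the co-cultures (limma, adjusted p under 0.05 over all genes tested). Of all genes tested, 13.7% were called in that test, and the count of 11 depended on the processing, as given below. The range of the 3 co-culture means on the log2 scale was 2.74 for EGLN3, 0.766 for ERO1A, 0.755 for BHLHE40, 0.545 for HK2 and 0.467 for HIF1A. It was 0.372 for ENO2, 0.351 for SLC2A1 and 0.281 for PGK1. It was 0.159 for ENO1, 0.153 for SLC2A3 and 0.138 for LDHA, whose adjusted p-values were 0.017, 0.042 and 0.025. Live bacteria were dosed as a range of 20 to 100 per Caco-2 cell, and the part of the dose of each strain in these differences was not tested.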

How the results depend on the processing

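The counts of lower genes in the 3 co-cultures and in live bacteria against supernatant, and the count called with E. coli supernatant, stayed within 1.5 times of the reported value under every alternative run. The counts of higher genes with supernatant did not. With no trend in the fit they were 10 with NCFM and 12 with Ls-33, with 24 h medium as control the B. lactis 420 count was 20, and over the fits that leave out 1 array they ranged from 9 to 17 (NCFM), 8 to 13 (B. lactis 420) and 11 to 21 (Ls-33). The F-test count among co-cultures was 6 with no trend, 7 with only those groups in the fit and 7 to 12 with 1 array left out. Where leaving out an array leaves 1 of 2, that array is assumed to vary like the other groups. The replicate numbers of the labels did not pair the arrays (correlation of deviations -0.10 to 0.057 over 21 pairs in the probiotic set and -0.14, -0.066 and 0.035 in the E. coli set). With a replicate block the counts were 24, 25 and 23 lower in the co-cultures, 16, 13 and 20 higher in the supernatants, 27, 26 and 26 lower in live bacteria against supernatant, 30 called with E. coli and 10 in the F-test.

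Single values that changed sign and were called in at least 1 of the settings compared came from the choice of probe set or of medium. For PFKP, ENO1 and PDK1 the other probe set had a low mean signal, 2.90, 2.63 and 2.73, close to the floor of 2.76. The probe sets used had means of 11.5, 12.5 and 8.86. The other probe set gave 0.731 for PFKP (live NCFM), 0.527 for ENO1 and 1.24 for PDK1 (live B. lactis 420). In live bacteria against supernatant it gave 0.683 for PFKP (NCFM), 0.471 for ENO1 (B. lactis 420) and 0.98, 1.69 and 0.936 for PDK1 (NCFM, B. lactis 420 and Ls-33), and the mean of all probe sets gave -0.487 and -0.265 for VEGFA (NCFM and B. lactis 420) and 0.017 for TPI1 (Ls-33). Against medium that mean gave -0.23 for BHLHE40 (live NCFM), 0.00038 and 0.044 for P4HA2 (live B. lactis 420 and Ls-33), 0.053 for SLC2A1 and -0.058 for HK2 (Ls-33 supernatant) and -0.403 for ERO1A (E. coli). Against 24 h medium the supernatants of NCFM, B. lactis 420 and Ls-33 gave -0.339, -0.456 and -0.289 for ADM, 0.443, 0.40 and 0.291 for SLC2A1, -1.36, -1.35 and -1.23 for BNIP3, -0.0699, -0.123 and -0.0416 for P4HA2, and -0.195, -0.226 and -0.0770 for DDIT4. They gave -0.648 for PFKFB4 (NCFM), 0.426 for HK2 and 0.188 for GAPDH (B. lactis 420), and 0.204 for GAPDH, 0.877 for ALDOC and -0.000375 for BNIP3L (Ls-33). The cause was not tested. Of the other recomputed values of single genes, 6916 kept their call and direction, 292 were no longer called, 69 became called and 73 changed sign without being called in either setting.

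Groups of 2 or 3 arrays, possibly of 1 culture, limit all results. Probiotic supernatant is confounded with time against 8 h medium, and with array set and RNA input against 24 h medium.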

Other observations

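HKDC1, a hexokinase outside the 36 genes, was also on opposite sides of medium with live bacteria and supernatant. It changed by -0.94, -0.67 and -0.55 on the log2 scale with live NCFM, B. lactis 420 and Ls-33, and by 0.62, 0.55 and 0.50 with their supernatants, all called by limma at an adjusted p under 0.05 against the same medium arrays. Its list did not fall as a set: of the 10 genes tested, 2, 2 and 4 were lower and 2, 3 and 4 higher with the live strains. LOX was lower with the live strains and higher with all 3 probiotic supernatants (0.49, 0.35 and 0.41). In the pentose phosphate pathway the transaldolase TALDO1 was lower with all 3 supernatants (-0.32, -0.32 and -0.30), as was PGD, which makes NADPH from 6-phosphogluconate (-0.43, -0.36 and -0.33). EP300, a coactivator that HIF recruits, was higher with all 3 supernatants (0.54, 0.40 and 0.45) and with E. coli supernatant (0.57), whereas ELOB, a subunit of the VHL ligase, was lower with the probiotic supernatants (-0.20, -0.20 and -0.22) and higher with the live strains (0.27, 0.26 and 0.15).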
